A study of Mus musculus with 12 samples.

Results

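BAT, brown fat that burns fuel to keep the body warm, was compared between Ebf2 mutant and control mice after 1 week in the cold. The comparison used all 6 cold libraries of the 12 in the series, 3 per genotype, and every gene that passed a filter on low counts, which left 15265 of the 24197 genes in the count table. Mutant mice carried Adipoq-Cre together with Ebf2 fl/fl, and control mice were Adipoq-Cre- with the same Ebf2 fl/fl alleles. All mice were 8 to 10 weeks old. The cold groups were kept at 4 degrees, and another 6 libraries came from the same genotypes at room temperature. Adipoq-Cre is a recombinase driven by the adiponectin gene, which is active in adipocytes, so blood vessels, immune cells, nerves and adipocyte precursors in the same tissue keep their Ebf2. The labels do not say whether the 3 libraries of a group came from separate animals or from pools. The p-values therefore measure the spread between these libraries, which may be technical.

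EBF2 (early B cell factor 2) is a DNA-binding transcription factor that marks brown fat precursors and works beside PPARG, the master regulator of fat cells, at genes of the brown fat programme. In the cold, sympathetic nerves release noradrenaline onto brown adipocytes, which then burn fatty acids and glucose in mitochondria uncoupled by UCP1. The question named by the series is how the EBF factors control this response.

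The tissue label was checked first. Ucp1 and Cidea, which mark brown fat, and Adipoq, a general adipocyte gene, were abundant in all 6 cold libraries. Ucp1 lay between 5867 and 12212 CPM (counts scaled to a normalised library total). Library totals ran from 28242416 to 37414852 counts, at which 3 counts, the floor of detection used here, correspond to 0.0772 to 0.114 CPM. The reads carry no molecular identifiers, and the standard errors given below include the spread between libraries, not counting error alone. The library labelled mutant 3 stood apart. Its summed epithelial markers reached 384 CPM, against 22.6 and 27.8 CPM in the other mutant libraries and 19.1 to 31.6 CPM in controls, and its Ucp1 was the lowest of the 6. Each result below was therefore also obtained without it.

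Ebf2 itself was 52.3, 42.2 and 41.6 CPM in controls and 28.7, 21.6 and 27.0 CPM in mutants. All 3 mutant libraries were below all 3 controls, and none was near 0. The log2 fold change was -0.82 ± 0.25 (SE, adjusted p = 0.153), so Ebf2 was not called in edgeR's quasi-likelihood test with Benjamini-Hochberg adjustment, which is used throughout with a threshold of 0.05. The counts cover the whole gene and would include reads of a transcript that lacks the deleted part. At room temperature Ebf2 was no lower in mutants (log2 fold change 0.06 ± 0.25, adjusted p = 0.931), so mutant and control stand for the labels throughout. In bulk tissue, fewer cells of a type and less RNA per cell cannot be told apart.

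Of the other family members, Ebf1 was 70.7, 98.4 and 83.1 CPM in controls and 84.4, 78.1 and 111 CPM in mutants (log2 fold change 0.12 ± 0.19, adjusted p = 0.801). Ebf3 was 67.8, 77.9 and 69.8 CPM in controls and 77.1, 76.0 and 55.3 CPM in mutants (-0.05 ± 0.14, adjusted p = 0.893). The groups overlapped for both, and the sign of each log2 fold change turned without mutant library 3.

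In the cold, 171 genes differed between the genotypes, 1.12% of those tested. Of these, 111 were higher in mutants (0.727%) and 60 were lower (0.393%). An unadjusted p under 0.05 was reached by 2343 of the 15265 genes tested, in either direction. The median log2 fold change of all genes tested was -0.01. All 171 called genes had groups that did not overlap, as did 24.8% of all genes tested, 12.9% higher and 12% lower in mutants. A fold change over 2 was seen in 113 of the 171, and over 4 in 36, of which 23 were higher and 13 lower. Without mutant library 3, 97 genes were called (0.626% of 15506), and 81 of the 171 were among them. The sign of the log2 fold change was the same for all 171. When only the other 5 cold libraries were fitted, 543 genes were called (3.68% of 14752), 150 of the 171 among them. The alternative tools DESeq2 and limma-voom each called more genes than edgeR, with totals given in the section on processing. Counts from a tool or fit in a gene list stand beside its own total.

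A set of 26 genes was called with all libraries and in each of the 6 fits that left out 1 cold library, 14 higher and 12 lower in mutants. All 26 were also called in the fit of the 5 cold libraries without mutant 3. These genes are described first, 25 of them by name. They include enzymes of amino acid and nucleotide metabolism, secreted plasma proteins, regulators of small GTPases and a nucleoside transporter.

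**Figure D1:**
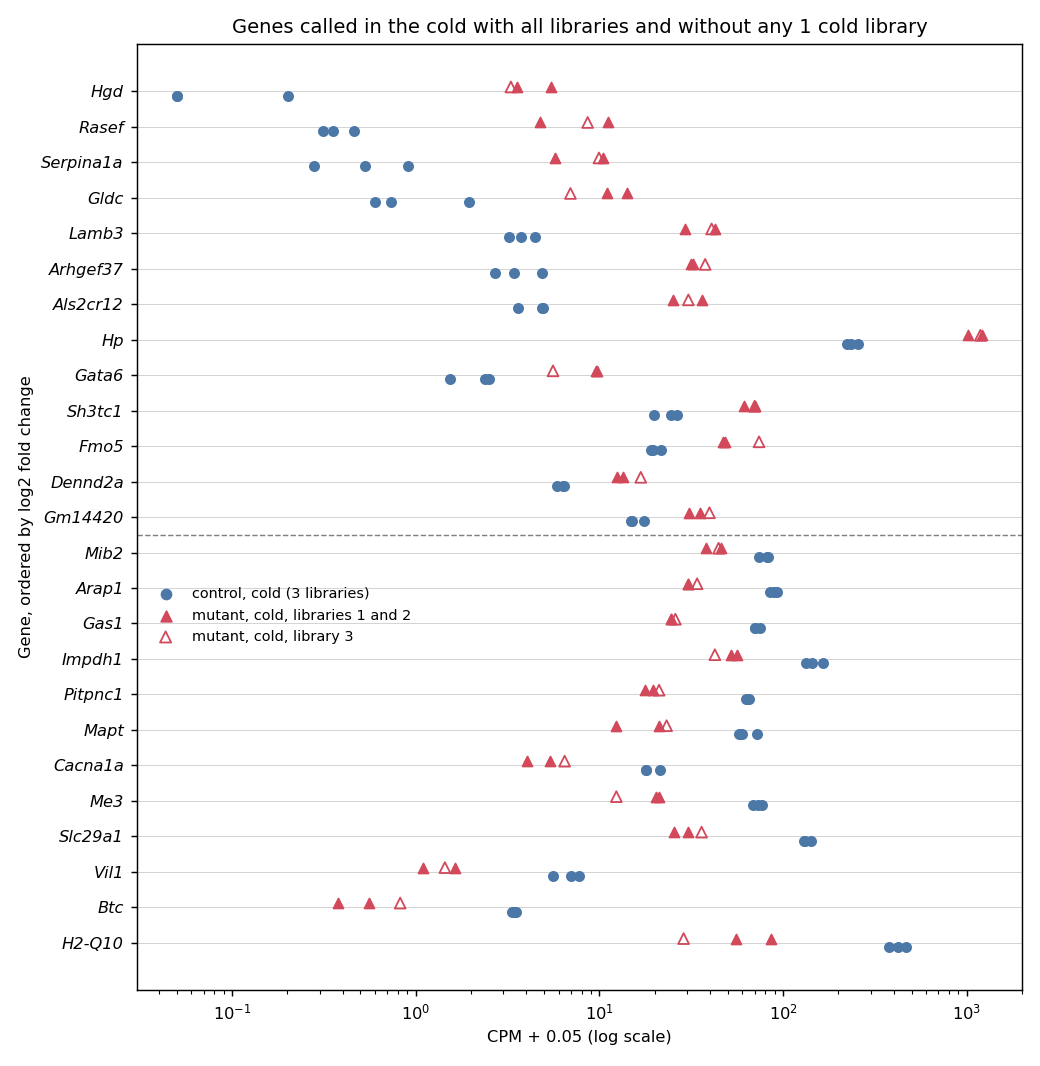
CPM plus 0.05 (log scale) of 25 of the 26 genes called in the cold with all libraries and without any 1 cold library, 1 row per gene and 1 point per library, with controls as circles, mutant libraries 1 and 2 as filled triangles and mutant library 3 as open triangles. The dashed line separates the 13 genes higher in mutants from the 12 lower, and in every row the 3 mutant libraries lie on 1 side of the 3 controls.

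Enzymes of amino acid breakdown were among the genes that rose. Hgd, homogentisate dioxygenase of the tyrosine pathway, was 3.52, 5.39 and 3.24 CPM in mutants. In controls it was 0, 0 and 0.152 CPM, so 2 of the 3 control libraries had no read. The log2 fold change was 6.29 ± 0.93 (adjusted p = 0.00855). Gldc, the glycine decarboxylase of the glycine cleavage system, was 0.551, 1.91 and 0.686 CPM in controls and 14.1, 11.0 and 6.90 CPM in mutants. Every mutant library exceeded the highest control, a 10.1-fold difference of means (log2 fold change 3.33 ± 0.42, adjusted p = 0.00355). Gldc was also called at room temperature, where it differed by 5.49 ± 0.47 (adjusted p = 0.000245).

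Of the 19 tested genes for the breakdown of tyrosine and other amino acids, 3 were called higher and 0 lower. The shares of all genes tested were 0.727% and 0.393%. Because the list was chosen with earlier results of these data known, the comparison of shares is no test. The list's median log2 fold change was 0.48, and 0.33 without mutant library 3. The third was Gstz1, which acts after Hgd in tyrosine breakdown and is also named maleylacetoacetate isomerase. It was 216, 274 and 264 CPM in controls and 458, 413 and 483 CPM in mutants (0.84 ± 0.14, adjusted p = 0.0184, and up to 0.104 without control library 3). Without mutant library 3 all 3 genes were called.

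None of the 27 tested genes of glucose uptake and glycolysis was called in edgeR (median -0.14). In that list 2 had an unadjusted p under 0.05, both lower, while DESeq2 called 0 and limma-voom called 1 higher and 1 lower. Among all 15265 genes tested, 2343 had an unadjusted p under 0.05.

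Secreted plasma proteins were also among the genes that rose. Hp encodes haptoglobin, which binds free haemoglobin and is made by liver and fat. It was 233, 256 and 222 CPM in controls and 1011, 1212 and 1184 CPM in mutants. The 3 values of each group lay close together, and the means differed 4.79-fold (log2 fold change 2.26 ± 0.28, adjusted p = 0.00355). Serpina1a, an alpha-1-antitrypsin gene, was 0.482, 0.856 and 0.229 CPM in controls and 10.4, 5.68 and 9.89 CPM in mutants, with no overlap (4.03 ± 0.50, adjusted p = 0.00355). The Serpina1 genes are near-identical copies and may share reads.

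Of the 20 tested serpin and acute phase genes, 3 were called higher and 0 lower, against 0.727% and 0.393% of all genes tested. This list was chosen with earlier results of these data known, so the comparison of shares is no test. The list's median was 0.70, and 0.30 without mutant library 3. The third was Cp, ceruloplasmin, a copper-carrying ferroxidase. Its values were 24.2, 39.1 and 27.3 CPM in controls and 79.6, 87.4 and 145 CPM in mutants (1.78 ± 0.28, adjusted p = 0.011, and 0.0616 and 0.0844 without control library 1 or 3). Kng1, kininogen, the precursor of bradykinin, was 0.310, 0.165 and 0.114 CPM in controls and 8.96, 5.07 and 4.04 CPM in mutants. Its groups were apart by more than 10-fold at their nearest values, and the log2 fold change was 4.90 ± 0.88 (adjusted p = 0.0266). Kng1 lost its call in 4 of the 6 fits without 1 cold library, with an adjusted p of up to 0.15.

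Many of these proteins are made in large amount by liver. Alb, the defining liver marker, was between 0 and 0.521 CPM in the 6 cold libraries, and Apoa1 between 0.0515 and 0.543 CPM. Of 20 liver and gut markers 9 passed the filter on low counts. Among those, 0 were called higher in edgeR (0 with an unadjusted p under 0.05, and 0 by DESeq2 or limma-voom). In edgeR 1 of the 9, Vil1, was called lower, against 0.393% of all genes tested, and DESeq2 and limma-voom each called 1 lower. The part of liver tissue in the rises was not tested.

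Lamb3, the beta chain of laminin-332, a basement membrane protein of epithelia, was 4.41, 3.16 and 3.70 CPM in controls and 42.3, 29.1 and 40.7 CPM in mutants. Mutant libraries 1 and 2, whose summed epithelial markers lay within the range of the controls, were also far above every control. The means differed 9.95-fold (log2 fold change 3.31 ± 0.33, adjusted p = 0.00124, and 3.25 without mutant library 3, adjusted p = 0.00296). The sum does not show each epithelial marker, and the part of epithelial tissue in the rise of Lamb3 was not tested. Rasef, a Rab-family GTPase with calcium-binding domains, was 0.413, 0.263 and 0.305 CPM in controls and 11.0, 4.71 and 8.57 CPM in mutants. All mutant libraries were over 10 times each control (4.62 ± 0.49, adjusted p = 0.00177).

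Arhgef37, of a guanine nucleotide exchange factor family, was 4.82, 2.63 and 3.39 CPM in controls. In mutants it was 32.4, 31.6 and 37.6 CPM, a tight group far from the controls (3.23 ± 0.25, adjusted p = 0.000199). Als2cr12 was 4.85, 4.84 and 3.54 CPM in controls and 36.1, 24.9 and 30.4 CPM in mutants, again without overlap (2.79 ± 0.25, adjusted p = 0.000687). Gata6, a zinc finger transcription factor best known from endoderm and heart, was 1.48, 2.34 and 2.44 CPM in controls and 9.48, 9.70 and 5.53 CPM in mutants. Mutant library 3 was the lowest of its group and still more than any control (1.98 ± 0.27, adjusted p = 0.00728).

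The other members of the group rose less. Fmo5, a flavin monooxygenase, rose 2.82-fold, Sh3tc1 2.84-fold, Dennd2a, a Rab exchange factor, 2.30-fold and the gene model Gm14420, of a zinc finger family with near-identical members, 2.24-fold. Their adjusted p-values ran from 0.00284 to 0.00728.

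Slc29a1 had the smallest p among the genes that fell. It encodes ENT1, the equilibrative transporter that moves adenosine and other nucleosides across the plasma membrane. Its values were 142, 130 and 131 CPM in controls and 30.1, 25.3 and 35.9 CPM in mutants. The groups lay far apart and each was tight, with a log2 fold change of -2.14 ± 0.23 (adjusted p = 0.00177), and -1.72 ± 0.22 at room temperature (adjusted p = 0.00141). Impdh1, the rate-limiting enzyme of guanine nucleotide synthesis, was 165, 144 and 133 CPM in controls and 51.8, 56.3 and 42.4 CPM in mutants (-1.55 ± 0.21, adjusted p = 0.00728). Of 19 tested genes of nucleoside transport and purine salvage, Slc29a1 alone was called in edgeR, with a list median of -0.06. DESeq2 called 3 higher and 2 lower in this list, and limma-voom 3 higher and 3 lower.

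H2-Q10, a secreted class I histocompatibility molecule known mainly from liver, was 422, 377 and 468 CPM in controls and 55.3, 85.3 and 28.7 CPM in mutants. Every mutant library was far below the lowest control, and the means differed 7.49-fold (log2 fold change -2.91 ± 0.41, adjusted p = 0.00855). Class I genes resemble each other and may share reads. At room temperature H2-Q10 did not separate the groups (-0.06 ± 0.38, adjusted p = 0.956), and the difference between the temperatures just missed the threshold (-2.85 ± 0.55, adjusted p = 0.0527).

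Btc, betacellulin, a ligand of the epidermal growth factor receptor, was 3.48, 3.36 and 3.28 CPM in controls and 0.326, 0.507 and 0.772 CPM in mutants. The controls were almost equal and every mutant was well under them (-2.63 ± 0.31, adjusted p = 0.00284). It was the only gene called in edgeR among 12 tested ligands and receptors of this family, whose median was -0.17, and -0.46 without mutant library 3. Vil1, villin, an actin-bundling protein of microvilli, was 5.51, 6.91 and 7.70 CPM in controls and 1.04, 1.59 and 1.39 CPM in mutants (-2.32 ± 0.26, adjusted p = 0.00269). Gas1, a membrane-anchored co-receptor of hedgehog ligands, was 70.6, 70.0 and 74.7 CPM in controls. In mutants it was 24.6, 24.3 and 25.8 CPM, with little spread in either group (-1.53 ± 0.18, adjusted p = 0.00284).

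Arap1, a GTPase-activating protein for Arf, was 84.6, 88.8 and 92.8 CPM in controls and 30.3, 30.2 and 34 CPM in mutants (-1.49 ± 0.17, adjusted p = 0.00269). Pitpnc1, a phosphatidylinositol transfer protein, was 63.2, 63.0 and 65.4 CPM in controls and 17.7, 19.5 and 21.1 CPM in mutants (-1.72 ± 0.21, adjusted p = 0.00355). Both held the same values to within a few CPM in each group. Me3, the mitochondrial NADP-dependent malic enzyme, was 68.4, 76.2 and 72.9 CPM in controls and 21.0, 20.3 and 12.3 CPM in mutants (-2.02 ± 0.28, adjusted p = 0.00728). Mutant library 3 was the lowest, and the difference without it was -1.81 (adjusted p = 0.0174).

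Among genes known from nerve cells, Mapt, which encodes the microtubule protein tau, fell 3.35-fold and Cacna1a, the pore of a voltage-gated calcium channel, 3.62-fold (both adjusted p = 0.00855). Mapt was 59.5, 72.4 and 57.2 CPM in controls and 21.0, 12.2 and 23.1 CPM in mutants, without overlap. The 15 tested Schwann cell and nerve markers had 0 called in edgeR (0 with an unadjusted p under 0.05, and 0 by DESeq2 or limma-voom), with a median of -0.48. Without mutant library 3 that median was -1.02, and in the fit of the other 5 cold libraries 2 of these markers were called lower. That fit called 3.68% of all genes in either direction. The part of nerve tissue in the falls of Mapt and Cacna1a was not tested. Mib2, an E3 ubiquitin ligase of Notch signalling, had the smallest fall of the 12 genes (1.86-fold, adjusted p = 0.00728).

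Because EBF factors bind DNA, promoter sequences of the called genes were searched for a short form of the EBF recognition site, TCCCNNGGG, on both strands. RefSeq windows on GRCm38.p6, from 250 bases before to 50 bases after an annotated start, were found for 121 of the 171 called genes. The letters occurred in 6 of 78 genes that rose (7.69%) and in 5 of 43 that fell (11.6%), against 9.51% of the 11809 tested genes with a window. A match is a description of letters and says nothing of binding. In 5 called genes a match ended within 60 bases before the start, a distance chosen after the matches were seen. In Lpgat1, another called gene, the match lay just after the start and is not shown. The 120 bases just before the start are shown for the 5 genes, because among called genes their letters end nearest before a start. Capitals mark the match, which lies on the opposite strand in H2-Q10.
Slc29a1, lower in mutants, chr17:45595531-45595650, minus strand: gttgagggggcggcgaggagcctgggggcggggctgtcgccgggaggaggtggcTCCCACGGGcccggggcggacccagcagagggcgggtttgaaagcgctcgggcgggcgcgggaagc
H2-Q10, lower in mutants, chr17:35469969-35470088, plus strand: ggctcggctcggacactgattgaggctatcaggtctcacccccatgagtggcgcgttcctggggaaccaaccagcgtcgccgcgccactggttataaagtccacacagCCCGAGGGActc
Mxi1, lower in mutants, chr19:53329293-53329412, plus strand: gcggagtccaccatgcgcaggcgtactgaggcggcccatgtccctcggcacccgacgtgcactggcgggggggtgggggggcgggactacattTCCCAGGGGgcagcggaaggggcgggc
Sept9, lower in mutants, chr11:117266126-117266245, plus strand: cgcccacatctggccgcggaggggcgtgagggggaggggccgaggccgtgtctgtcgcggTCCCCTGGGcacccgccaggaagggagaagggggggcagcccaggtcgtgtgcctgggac
Cyp4v3, higher in mutants, chr8:45333164-45333283, minus strand: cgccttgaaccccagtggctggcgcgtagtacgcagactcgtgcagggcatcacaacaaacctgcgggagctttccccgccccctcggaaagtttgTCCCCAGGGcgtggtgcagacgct

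Of the 5 genes, 4 fell and 1 rose. Mxi1, a partner and antagonist in the MYC network, was 34.5, 44.3 and 47.1 CPM in controls and 23.2, 27.2 and 23.3 CPM in mutants (-0.77 ± 0.13, adjusted p = 0.0187, and 0.0517 without mutant library 3). Sept9, a cytoskeletal septin that RefSeq names Septin9, fell from 372 ± 57.0 to 213 ± 18.5 CPM (SD, n = 3, adjusted p = 0.0423, and 0.094 without mutant library 3). Cyp4v3, a fatty acid hydroxylase, rose from 29.6 ± 2.17 to 67.9 ± 28.1 CPM (adjusted p = 0.0475, and 0.0924 without mutant library 3). The call was lost without mutant library 3 for Mxi1, Sept9 and Cyp4v3, and Slc29a1 and H2-Q10 kept it in each fit without 1 cold library.

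Every called gene beyond the 26 lost its call in at least 1 of the 6 fits without a cold library, and several of them had large fold changes. Sptlc3, a subunit of serine palmitoyltransferase, the first enzyme of sphingolipid synthesis, was 0, 0.198 and 0.0762 CPM in controls and 5.08, 2.53 and 5.28 CPM in mutants. It was close to the floor in every control and clearly expressed in every mutant (5.48 ± 0.81, adjusted p = 0.00855, and 0.0719 without control library 3). Grik4, a kainate receptor subunit, had 0 counts in the 3 controls and 209 counts over the mutants, at least 61.4-fold higher against 3 counts over the group (adjusted p = 0.0353, and 0.0749 without mutant library 3). Sult4a1, a sulfotransferase of brain, was 0.413, 0.198 and 0.0762 CPM in controls and 4.2, 4.63 and 6.38 CPM in mutants (4.44 ± 0.74, adjusted p = 0.0174, and up to 0.104 without control library 2).

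Kcnj15, an inwardly rectifying potassium channel, was 2.24, 3.52 and 4.34 CPM in controls and 20.6, 58.5 and 41.2 CPM in mutants. It was higher in every mutant, with a wide spread among them (3.57 ± 0.58, adjusted p = 0.0214, and 0.0704 without mutant library 3).

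Genes known from muscle were among those that fell. Fbp2, the muscle form of fructose bisphosphatase, was 67.1, 57.7 and 73.3 CPM in controls and 19.9, 15.1 and 10.9 CPM in mutants (-2.11 ± 0.30, adjusted p = 0.00855, and 0.0505 without control library 3). Popdc2, a cAMP-binding protein of heart and muscle, was 11.2, 11.9 and 13.3 CPM in controls and 3.42, 2.10 and 4.35 CPM in mutants (-1.88 ± 0.34, adjusted p = 0.0263). Camk2b, a calmodulin-dependent kinase, was 33.7, 29.6 and 49.2 CPM in controls and 5.50, 6.45 and 9.78 CPM in mutants (-2.37 ± 0.46, adjusted p = 0.0413). The summed skeletal muscle markers did not follow the same order, with 2948, 273 and 12017 CPM in controls and 255, 502 and 6802 CPM in mutants. Control library 2, with muscle markers at 273 CPM, had Fbp2, Popdc2 and Camk2b at 57.7, 11.9 and 29.6 CPM. The part of muscle tissue in the falls of these genes was not tested. Popdc2 was called in 1 and Camk2b in 0 of the 6 fits without a cold library, with an adjusted p of up to 0.104 and 0.155 respectively, each without control library 3.

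The other large falls were Dnajc22, a DNAJ-family co-chaperone (7.26-fold, adjusted p = 0.0304), Rragb, a Rag GTPase of mTORC1 signalling (6.14-fold, adjusted p = 0.0494), and Rnf182, a ubiquitin ligase (5.36-fold, adjusted p = 0.0494). Without mutant library 3 these genes had adjusted p-values of 0.0845, 0.124 and 0.129.

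**Figure D2:**
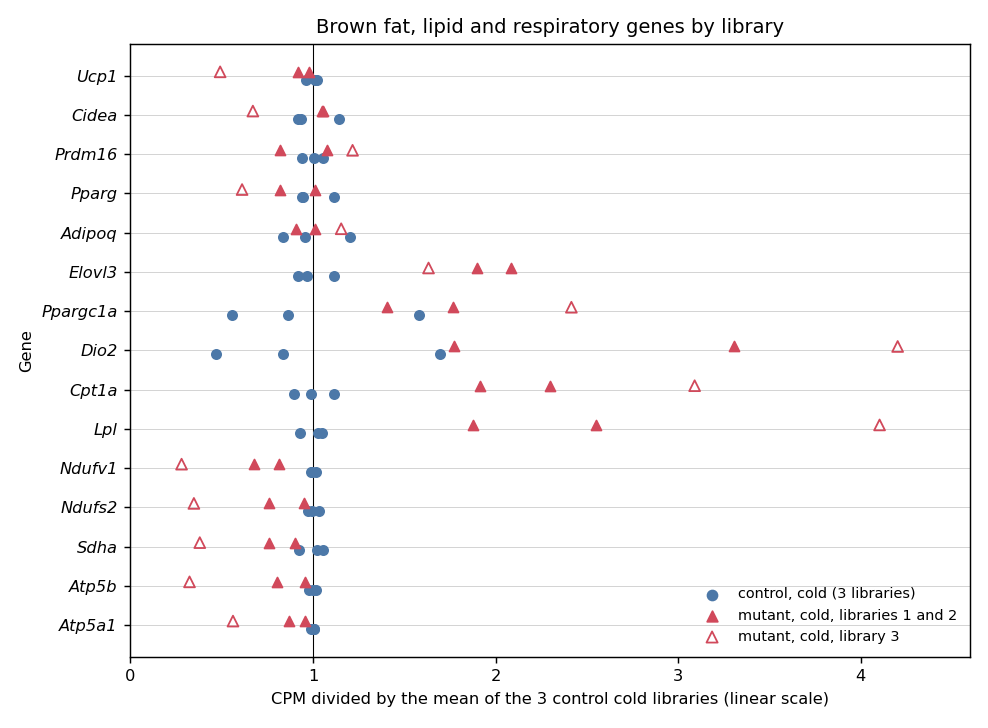
CPM of 15 brown fat, lipid and respiratory genes divided by the mean of the 3 control cold libraries (linear scale), 1 point per library, with controls as circles, mutant libraries 1 and 2 as filled triangles and mutant library 3 as open triangles. Elovl3, Dio2, Cpt1a and Lpl are above every control in all 3 mutants, while for Ucp1 and the respiratory genes mutant library 3 is the lowest point.

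Genes of the thermogenic programme lay on both sides of 0. Of its 31 genes, 15 had a positive and 16 a negative log2 fold change, with a median of -0.01, and 0 were called in edgeR. An unadjusted p under 0.05 was reached by 5 higher and 3 lower, against 2343 of all 15265 genes tested. DESeq2 and limma-voom, which called more of all genes than edgeR, each called 4 higher and 2 lower. Ucp1, the uncoupling protein that makes heat, was 12212, 11505 and 12090 CPM in controls and 10971, 11675 and 5867 CPM in mutants. Only mutant library 3 was far from the controls, and the log2 fold change of -0.33 ± 0.38 (adjusted p = 0.716) became -0.08 without it (adjusted p = 0.961). At room temperature Ucp1 was lower in mutants (-1.77 ± 0.39, adjusted p = 0.0199), and the difference between the temperatures was 1.44 ± 0.54 (adjusted p = 0.305), which was not called.

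Elovl3, a fatty acid elongase induced by cold, was 637, 525 and 554 CPM in controls and 1192, 1085 and 934 CPM in mutants. All mutants were above all controls (0.90 ± 0.26, adjusted p = 0.129), and with the 5 cold libraries alone Elovl3 was called (0.99, adjusted p = 0.00363). Dio2, which activates thyroid hormone, was 181, 89.6 and 50.2 CPM in controls and 354, 190 and 450 CPM in mutants, with no overlap but a wide spread in both groups (1.63 ± 0.45, adjusted p = 0.121). Ppargc1a, the coactivator PGC-1alpha, was 117, 40.9 and 63.8 CPM in controls and 104, 130 and 178 CPM in mutants, with overlap (0.90 ± 0.33, adjusted p = 0.227). Fgf21, a hormone that brown fat secretes in the cold, was 2.96, 0.856 and 1.37 CPM in controls and 3.49, 7.68 and 10.6 CPM in mutants (2.06 ± 0.85, adjusted p = 0.279).

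Other brown fat and general adipocyte genes named here showed overlapping groups. Cidea, a lipid droplet protein of brown fat, had a log2 fold change of -0.11 ± 0.26 (adjusted p = 0.871), and Prdm16, a coregulator of brown fat identity, one of 0.05 ± 0.28 (adjusted p = 0.948). Pparg had one of -0.30 ± 0.19 (adjusted p = 0.48) and Adipoq, adiponectin, one of 0.03 ± 0.16 (adjusted p = 0.945). The signs for Cidea, Prdm16 and Adipoq turned without mutant library 3.

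Lipid handling genes held several of the called rises. Lpl, lipoprotein lipase, which releases fatty acids from circulating triglyceride, was 5818, 5694 and 5145 CPM in controls and 14156, 10410 and 22776 CPM in mutants. Every mutant was above every control and mutant library 3 was the highest (1.51 ± 0.31, adjusted p = 0.0438). Without that library Lpl was not called (1.15, adjusted p = 0.0871), although with the 5 cold libraries alone it was (adjusted p = 0.00528). Lpl was the only gene called in edgeR among 20 tested for lipolysis and lipid uptake (median 0.39) and among 24 general adipocyte genes (median 0.17). In the first list DESeq2 and limma-voom each called 4 higher and 1 lower, and in the second each called 5 higher.

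Cpt1a, the carnitine palmitoyltransferase that admits long-chain fatty acids to mitochondria, was 27.2, 24.6 and 30.6 CPM in controls and 63.1, 52.6 and 84.8 CPM in mutants. The groups were well apart (1.28 ± 0.20, adjusted p = 0.0124, and 0.0289 without mutant library 3), and the call was lost without control library 1, 2 or 3 (up to 0.0739). Of the 25 tested genes of mitochondrial fatty acid oxidation, Cpt1a alone was called in edgeR, while DESeq2 and limma-voom each called 3 higher. The list's median of -0.27 became 0.05 without mutant library 3. Of 31 tested PPAR-responsive genes, 28 had a positive log2 fold change, against 7482 of the 15265 genes tested, and 2 were called higher, Cpt1a and Acaa1b. The list's median was 0.41, and 0.46 without mutant library 3. It too was chosen with earlier results of these data known, so its shares are no test.

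Peroxisomal genes had 3 of 48 called higher in edgeR (6.25%, against 0.727% of all genes tested) and 0 lower. Their median was 0.13, and 0.22 without mutant library 3. DESeq2 called 10 higher and 1 lower, limma-voom 15 higher and 1 lower, and the fit of 5 cold libraries 8 higher. That fit called 3.68% of all genes in either direction, and both tools also called more of all genes than edgeR. The list was chosen with earlier results of these data known, so its shares are no test. Acaa1b, a peroxisomal thiolase, was 128, 96.2 and 113 CPM in controls and 353, 205 and 273 CPM in mutants (1.30 ± 0.25, adjusted p = 0.0346). Abcd2, a peroxisomal transporter of very long-chain acyl-CoA, was 28.3, 85.7 and 59.4 CPM in controls and 191, 165 and 235 CPM in mutants (1.77 ± 0.36, adjusted p = 0.0451). Both separated the groups without overlap. Acot5, a peroxisomal acyl-CoA thioesterase of a family with near-identical copies, was 0.413, 0.461 and 0.381 CPM in controls and 7.07, 5.03 and 3.45 CPM in mutants (3.62 ± 0.74, adjusted p = 0.0438). Without mutant library 3 the adjusted p of Acaa1b, Abcd2 and Acot5 was 0.076, 0.135 and 0.056, and none of these 3 was called. Scp2, another of the 48, was called there (0.71, adjusted p = 0.0281), and was not called with all libraries (0.56, adjusted p = 0.119).

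Slc25a17, the peroxisomal carrier of coenzyme A, was the only gene called in edgeR among 37 mitochondrial and peroxisomal solute carriers (0.55 ± 0.12, adjusted p = 0.0499). The share called higher among all genes tested was 0.727%. Slc25a17 was called without mutant library 3 (0.0357), the only 1 of the 6 fits without a cold library to call it (up to 0.237). Ephx2, soluble epoxide hydrolase, was 542, 550 and 525 CPM in controls and 1215, 857 and 1151 CPM in mutants. Every mutant was well above the highest control (1.00 ± 0.15, adjusted p = 0.0087, 0.0164 without mutant library 3 and 0.0741 without control library 3). Scd2, a stearoyl-CoA desaturase, was the only gene called in edgeR of 24 for fatty acid and triglyceride synthesis (4 higher by DESeq2, 4 higher and 1 lower by limma-voom), at 316, 272 and 343 CPM in controls and 785, 750 and 687 CPM in mutants (1.25 ± 0.26, adjusted p = 0.0492, and 0.0845 without mutant library 3). Cholesterol synthesis genes had 0 of 24 called in edgeR, with 2 lower at an unadjusted p under 0.05, 0 called by DESeq2 and 1 higher by limma-voom.

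Mest, an imprinted gene that marks expanding white fat, was 8.81, 6.95 and 9.22 CPM in controls and 25.3, 13.7 and 16.9 CPM in mutants (1.16 ± 0.23, adjusted p = 0.036, and 0.0557 without mutant library 3). It was the only gene called in edgeR among 15 tested white-fat-enriched genes (3 higher by each other tool), whose median was 0.89, and 0.64 without mutant library 3.

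Genes of the respiratory chain differed in mutant library 3 more than in the other mutants. Ndufv1, a catalytic subunit of complex I, was 1102, 1075 and 1068 CPM in controls and 734, 878 and 303 CPM in mutants. All mutants were below all controls, and mutant library 3 was the lowest by far (-0.76 ± 0.31, adjusted p = 0.274). Without it the difference was -0.42 (adjusted p = 0.404). All 37 complex I genes had a negative log2 fold change, with a median of -0.37 that was -0.07 without mutant library 3. For 31 genes of complexes II to IV the medians were -0.43 and -0.08, and for 17 ATP synthase genes -0.35 and -0.13.

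In edgeR 0 genes of these 3 lists were called. An unadjusted p under 0.05 was reached by 1 complex I gene, which was lower, by 1 gene of complexes II to IV, which was higher, and by 0 ATP synthase genes. DESeq2 and limma-voom called 0 in each. The 77 mitochondrial ribosomal protein genes went from a median of -0.17 to 0.04 when mutant library 3 was left out. Atp5b, the catalytic beta subunit of ATP synthase, was 9181, 9327 and 8961 CPM in controls and 7353, 8733 and 2966 CPM in mutants. That library also held the raised epithelial markers and the lowest Ucp1, and the part of its tissue makeup in these medians was not tested.

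**Figure D3:**
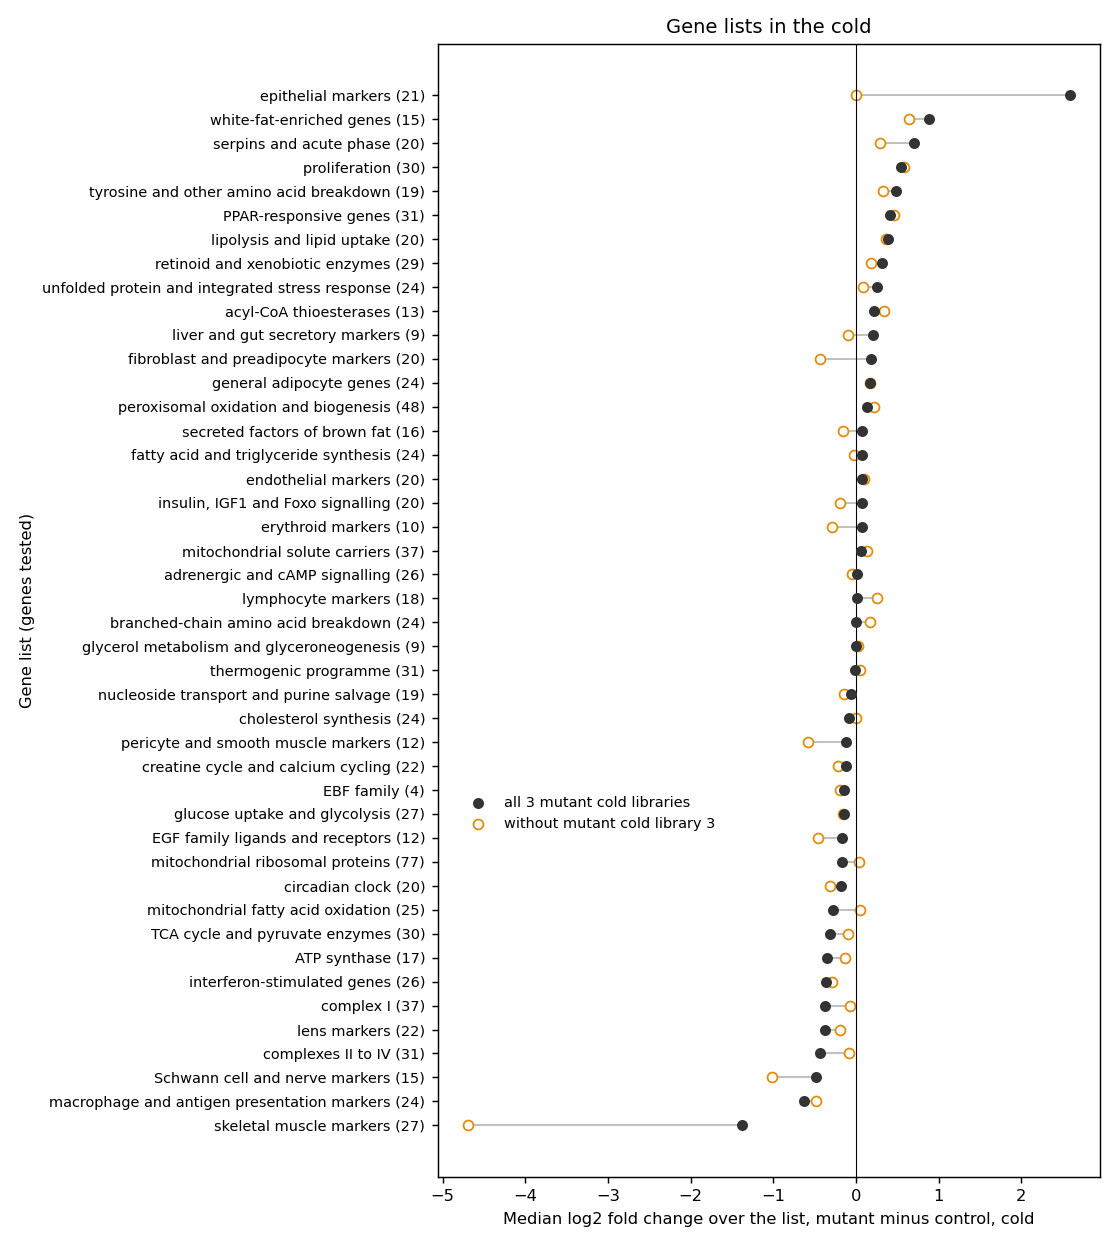
Median log2 fold change in the cold (mutant minus control) of each of the 44 gene lists, with the number of genes tested in brackets, from all cold libraries (filled) and without mutant library 3 (open). The epithelial median of all libraries is the fitted value of a gene with no read in 5 of the 6 cold libraries and gives no size, the skeletal muscle median moves from -1.38 to -4.70, and the respiratory lists move from between -0.43 and -0.35 to near 0.

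Proliferation genes leaned towards the mutants. Of 30 tested, 29 had a positive log2 fold change, with a median of 0.55, and 0.58 without mutant library 3. In edgeR 0 were called, 7 were higher at an unadjusted p under 0.05, and DESeq2 called 3 and limma-voom 9, all higher. Of all 15265 genes tested, 2343 had an unadjusted p under 0.05 in either direction, and both other tools called more genes than edgeR. Rrm1, a ribonucleotide reductase subunit, was 29.9, 26.4 and 25.5 CPM in controls and 39.1, 35.2 and 31.4 CPM in mutants, without overlap (0.37 ± 0.16, adjusted p = 0.288).

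Markers of other cell types were read in the same libraries. Of 26 epithelial markers 21 were tested, and 20 had a positive log2 fold change. Their median of 2.59 is the fitted value of Csn2, which had no read in 5 of the 6 cold libraries, so it gives no size. Krt8, a keratin of simple epithelia, was 1.03, 4.81 and 4.73 CPM in controls and 4.43, 2.97 and 79.3 CPM in mutants (3.04, adjusted p = 0.269). Only mutant library 3 was high. With all libraries no epithelial marker was called in edgeR. At an unadjusted p under 0.05 12 were higher, against 2343 of all 15265 genes tested in either direction. DESeq2 called 1 higher, and limma-voom 1 higher and 1 lower. In the fit of the 5 cold libraries without mutant library 3, 1 epithelial marker was called higher, and 3.68% of all genes were called in either direction. All 27 skeletal muscle genes had negative log2 fold changes (median -1.38, and -4.70 without mutant library 3), with 0 called by any of the 3 tools and 0 at an unadjusted p under 0.05.

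Macrophage and antigen presentation markers summed to 1043, 499 and 405 CPM in controls and 389, 502 and 288 CPM in mutants, with control library 1 the highest. In edgeR 0 of 24 were called (median -0.63), 1 was higher and 4 lower at an unadjusted p under 0.05, DESeq2 called 1 lower and limma-voom 1 higher. Endothelial markers summed to between 1926 and 2092 CPM in all 6 libraries, with 0 of 20 called by the 3 tools and 1 higher at an unadjusted p under 0.05. Lens markers summed to 336, 256 and 350 CPM in controls and 300, 273 and 180 CPM in mutants, with 0 of 22 called by the 3 tools and 0 at an unadjusted p under 0.05.

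**Figure D4:**
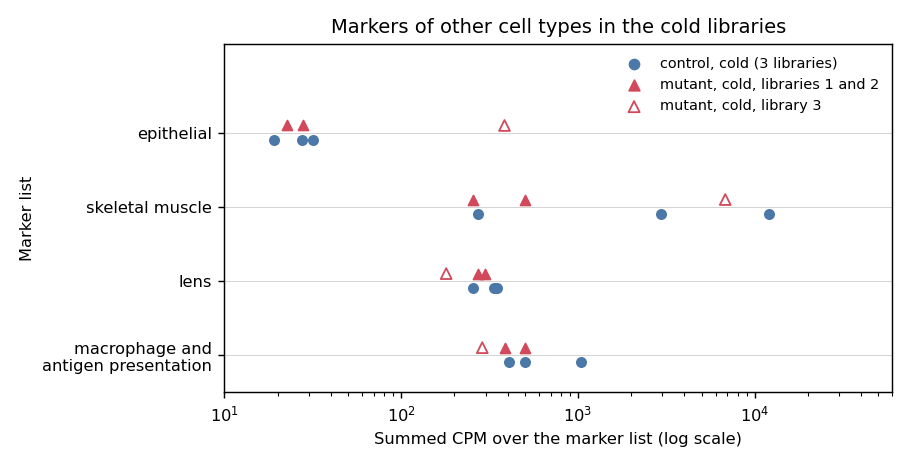
Summed CPM (log scale) of 4 marker lists in each cold library, with controls as circles, mutant libraries 1 and 2 as filled triangles and mutant library 3 as open triangles. Mutant library 3 stands alone for epithelial markers at 384 CPM, and skeletal muscle markers are high in control libraries 1 and 3 and in mutant library 3.

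The cold difference was then set beside the difference at room temperature, measured in the other 6 libraries. At room temperature 952 genes were called (6.24%). Of the 26 genes called in every cold fit, 16 were called there with the same sign and 0 with the opposite sign. Of all 171, 77 were called at room temperature with the same sign and 2 with the opposite sign. The difference between the cold and the room temperature fold change, the interaction, was called for 73 genes (0.478%), and 11 of them were among the 171.

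Lamb3 had the largest such difference among the 11. At room temperature it was 3.54, 8.57 and 4.39 CPM in controls and 5.12, 3.75 and 5.92 CPM in mutants, so the groups overlapped there and were apart only in the cold (interaction 3.47 ± 0.44, adjusted p = 0.00756). Arhgef37 was 2.11, 1.89 and 2.38 CPM in controls and 2.39, 3.71 and 3.95 CPM in mutants at room temperature (interaction 2.58 ± 0.34, adjusted p = 0.00991). Als2cr12 was 16, 11.4 and 8.07 CPM in controls and 14.3, 15.4 and 18.4 CPM in mutants there (2.35 ± 0.34, adjusted p = 0.0161). Its control values were higher at room temperature than in the cold, where they did not exceed 4.85 CPM.

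The 2 genes called in opposite directions were Irf7 and Rbp4. Irf7, a transcription factor of the interferon response, was 22.3, 22.9 and 14.3 CPM in controls and 7.69, 9.88 and 9.76 CPM in mutants in the cold (-1.12 ± 0.21, adjusted p = 0.0275, and 0.0557 without mutant library 3). At room temperature it was 12.9, 10.1 and 9.51 CPM in controls and 16.4, 19.7 and 21.5 CPM in mutants (0.82 ± 0.20, adjusted p = 0.0341). The order of the groups was thus the reverse, without overlap at either temperature (interaction -1.95 ± 0.29, adjusted p = 0.0171). Irf7 was the only gene called in edgeR of 26 interferon-stimulated genes (1 lower by DESeq2, 1 higher and 2 lower by limma-voom), of which 21 had a negative log2 fold change in the cold (median -0.36).

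Rbp4, the retinol carrier of plasma, was 113, 145 and 148 CPM in controls and 59.6, 51.6 and 69.9 CPM in mutants in the cold (-1.16 ± 0.24, adjusted p = 0.0475, and 0.0767 without mutant library 3). At room temperature it was 105, 59.6 and 67.0 CPM in controls and 144, 201 and 115 CPM in mutants (0.99 ± 0.24, adjusted p = 0.0315). Mutants were thus the lower group in the cold and the higher group at room temperature (interaction -2.16 ± 0.34, adjusted p = 0.023).

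Hpdl, a mitochondrial relative of 4-hydroxyphenylpyruvate dioxygenase, rose 2.76-fold in cold mutants (adjusted p = 0.0377, and 0.0919 without mutant library 3). At room temperature all 3 mutants were below the controls, at 3.28, 1.37 and 3.82 CPM against 4.74, 6.79 and 5.15 CPM. Agpat5, an acyltransferase of phosphatidic acid synthesis, rose 1.58-fold in the cold (adjusted p = 0.0346, and 0.0557 without mutant library 3), and Pgap2, which remodels membrane anchors, 1.67-fold (0.011, and 0.029 without it). Rnd2, an atypical small GTPase, fell 2.99-fold (adjusted p = 0.00855) and Zfp395, a zinc finger protein, 1.79-fold (0.0315, and up to 0.164 without control library 3).

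**Figure D5:**
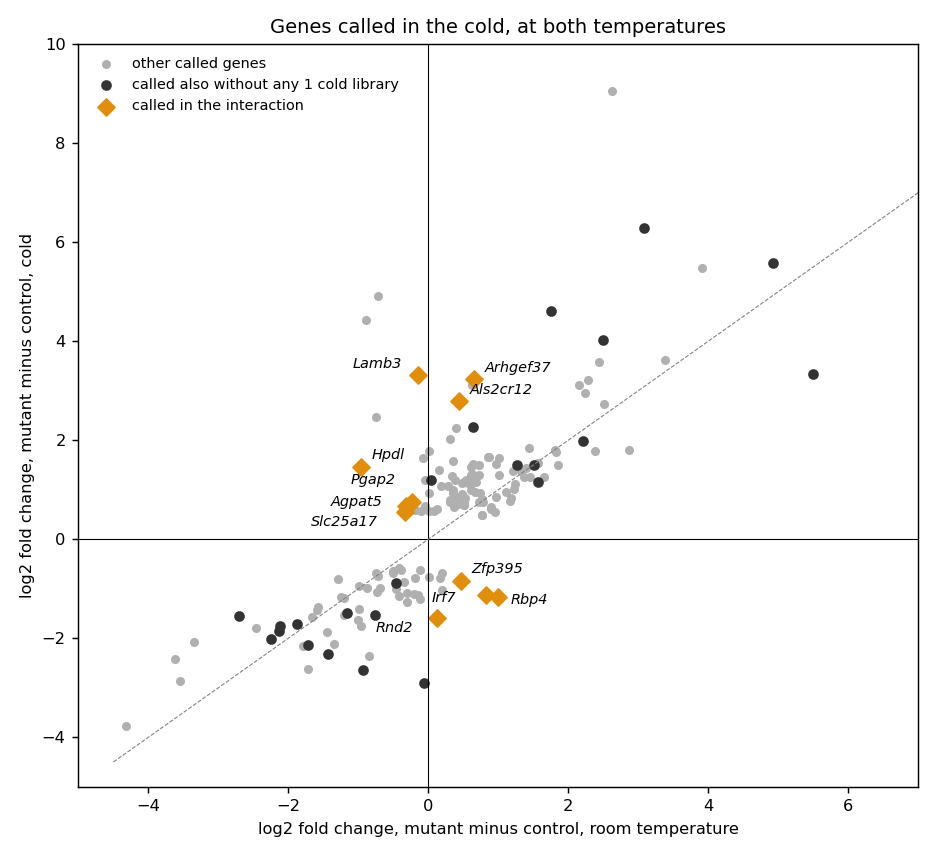
Log2 fold change (mutant minus control) at room temperature (horizontal) and in the cold (vertical) of the 171 genes called in the cold, with those called in every fit without 1 cold library in black and the 11 also called in the interaction as labelled diamonds. The dashed line marks equal fold changes, and 149 of the 171 genes have the same sign at both temperatures.

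Adipoq-Cre lines are built from Adipoq sequence, so the neighbours of Adipoq in RefSeq gene order were read as well. Within 6 places on either side, 8 genes beside Adipoq were tested and Kng1, 3 places away, was the only one called in the cold. Eif4a2 and Rfc4, which lie between Kng1 and Adipoq, had log2 fold changes of 0.27 (adjusted p = 0.622) and 0.75 (adjusted p = 0.128) in the cold. At room temperature the log2 fold change of Kng1 was -0.72 (adjusted p = 0.775), and that of its neighbour Kng2 was -2.85 (adjusted p = 0.00148). Whether the transgene itself carries any of these genes was not tested.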

How the data were processed

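RNA of BAT was sequenced, and the authors deposited 1 table of raw read counts per gene for 12 libraries in 4 groups of 3. Per the submitters' processing notes, STAR, featureCounts and mm9 were used. No source used here states versions, annotation, strand setting or the treatment of multiply mapped reads, so overlapping genes and near-identical copies may share reads. Gm6644 and Akr1b3, both among the 171 genes called in the cold, have identical rows, so the same counts enter that total under both names. Other genes with identical rows, such as Hba-a1 and Hba-a2, were not called and were counted separately in their list.

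Genes were filtered with filterByExpr (minimum count 10, minimum total 15), scaled by TMM and tested with the robust quasi-likelihood fit of edgeR 4.0.16 in R 4.3.3, with 1 coefficient per group over all 12 libraries. P-values were adjusted by the Benjamini-Hochberg method and called under 0.05. Standard errors were taken from the log2 fold change and its F statistic. DESeq2 1.42.0 and limma 3.58.1 (voom) were alternatives, and the code was tested on simulated data. No 2 cold libraries of a group agreed within sampling noise (chi-square per degree of freedom 38.2 to 234).

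Named genes were EBF and brown fat genes, the 12 largest changes in each direction, the 15 smallest p among genes called in every fit without 1 cold library, called or most abundant list members, and 5 interaction genes per sign. The remaining core genes, the genes in the promoter search and those in the other observations were picked with their values in view. For 1 of the core genes, values are not reported here. The members, the gene lists and this rule were chosen with earlier results of these data known. Promoter windows are from RefSeq (GRCm38.p6), not the build of the counts, and were matched by symbol.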

Additional observations from a re-analysis of the deposited data

Results flagged for a closer look

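For 11 genes called in the cold, the genotype difference in the cold differed from that at room temperature by the interaction term of the edgeR fit. Positive interaction log2 values, where mutants were relatively higher in the cold, were found for Lamb3 (3.47, adjusted p = 0.00756), Arhgef37 (2.58, adjusted p = 0.00991), Hpdl (2.43, adjusted p = 0.0318), Als2cr12 (2.35, adjusted p = 0.0161), Pgap2 (0.98, adjusted p = 0.027), Agpat5 (0.98, adjusted p = 0.0449) and Slc25a17 (0.89, adjusted p = 0.0462). Negative values were found for Rbp4 (-2.16, adjusted p = 0.023), Irf7 (-1.95, adjusted p = 0.0171), Rnd2 (-1.70, adjusted p = 0.0492) and Zfp395 (-1.30, adjusted p = 0.0318). The other genes called in the cold did not pass this test, which does not show that their differences were equal at both temperatures. Groups of 3 were not tested for single outlying samples.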

How the results depend on the processing

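The number of genes called between genotypes in the cold, 171, became 745 with DESeq2 and 1119 with limma-voom, and all 171 were among each. They became 102 with only the 6 cold libraries, 543 with 5 of them (mutant library 3 left out), 19 with mutant and control cold library 3 left out, and 28 (without cold control 3) to 203 (without room temperature control 2) with 1 library left out. Without cold control 1 or 2 they were 59 and 44, and without cold mutant 1, 2 or 3 they were 64, 133 and 97. The 73 interaction calls became 452 with DESeq2, 1121 with limma-voom, 48 in a non-robust fit, 7 without mutant and control cold library 3, and 13 (without cold control 2) to 204 (without room temperature control 1). The cause of these shifts was not tested. With the replicate number as a block, 125 genes were called in the cold (113 shared) and 34 in the interaction, and Ebf2 was -0.80. Same-numbered cold samples correlated at -0.03, 0.21 and 0.49, so the numbers were not taken as pairs. Ebf2 was called at -0.75 with limma-voom (adjusted p = 0.0492) and at -0.85 in the 5 cold libraries (adjusted p = 0.0274), and leaving out 1 library gave -0.90 to -0.70. Small log2 fold changes that were never called turned sign. With limma-voom these were -0.034 (Ebf1), 0.054 (Ebf3), -0.12 (Prdm16), 0.081 (Cidea) and -0.050 (Adipoq). In the 5 cold libraries they were -0.051, 0.089, -0.078, 0.074 and -0.064 in the same order, and with mutant and control cold library 3 left out -0.044, 0.086, -0.018, 0.050 and -0.079. Leaving out 1 library gave -0.048 to 0.26 for Ebf1, -0.12 to 0.091 for Ebf3, -0.075 to 0.20 for Prdm16, -0.21 to 0.077 for Cidea and -0.085 to 0.21 for Adipoq. Of the values of named genes under the alternatives, 1562 kept direction and call, 364 lost the call, 9 gained it and 22 turned sign. Depth limits genes near 3 counts in a group, such as Grik4 and Hgd in controls.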

Other observations

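All genes in these observations were chosen after their values were seen, and their roles are background. Hgf, hepatocyte growth factor, was 0.792, 0.395 and 0.381 CPM in controls and 4.30, 3.26 and 2.93 CPM in mutants (2.73 ± 0.40, adjusted p = 0.00855). Met, its receptor, was 21.2, 18.8 and 21.8 CPM in controls and 40.7, 35.9 and 65.7 CPM in mutants (1.20 ± 0.22, adjusted p = 0.0277). Neither gene's groups overlapped, and both were called without mutant library 3 (adjusted p = 0.013 and 0.0418). Leaving out control library 2 or 3 ended the call of Hgf (up to 0.0606), and leaving out any 1 control that of Met (up to 0.12). Fgf10, a growth factor of adipose precursors, was 5.30, 9.71 and 7.05 CPM in controls and 21.4, 15.8 and 39.6 CPM in mutants (1.80 ± 0.34, adjusted p = 0.0328, and 0.0557 without mutant library 3). Cnr1, the cannabinoid receptor CB1, was 1.38, 1.19 and 0.762 CPM in controls and 14.4, 6.81 and 7.72 CPM in mutants (3.11 ± 0.46, adjusted p = 0.00855). All of its mutant values exceeded the controls, and its call was lost without control library 2 or 3 (0.0501 and 0.061).

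Cbs and Cth, the successive enzymes that turn homocysteine into cysteine, both rose. Cbs was 0.551, 2.44 and 1.64 CPM in controls and 17.5, 9.16 and 16.6 CPM in mutants (3.22 ± 0.52, adjusted p = 0.0152), and Cth was 3, 4.48 and 2.97 CPM in controls and 9.09, 7.82 and 15.5 CPM in mutants (1.63 ± 0.27, adjusted p = 0.0181). Both were called without mutant library 3. Cbs was not called when control library 3 (0.103) or mutant library 1 (0.0516) was left out, nor Cth when control library 1 (0.0833) or 3 (0.109) was.

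Tfrc, the transferrin receptor, was 70.8, 48.7 and 47.8 CPM in controls and 389, 404 and 129 CPM in mutants, with mutant library 3 the lowest of its group (2.46 ± 0.46, adjusted p = 0.0374, and 0.0111 without it). Without any other 1 cold library Tfrc was not called (up to 0.174). Alas1, the first enzyme of haem synthesis, was 213, 194 and 215 CPM in controls and 432, 490 and 317 CPM in mutants (1.00 ± 0.16, adjusted p = 0.0141), and was called without mutant library 2 or 3 only. Steap3, an endosomal ferrireductase, rose 1.47-fold (adjusted p = 0.0481, and 0.1 without mutant library 3). Scarb1, the receptor for high-density lipoprotein, was 54.8, 78.8 and 57.5 CPM in controls and 142, 137 and 141 CPM in mutants (1.14 ± 0.16, adjusted p = 0.00728, and 0.0579 without control library 3), and Abcg1, a cholesterol exporter, rose 3.11-fold (adjusted p = 0.0374, and 0.108 without mutant library 3). The ceramide kinase Cerk rose 1.74-fold (adjusted p = 0.0198, and 0.0525 without mutant library 3) and the sphingomyelin synthase Sgms1 rose 2.20-fold (adjusted p = 0.0168, and up to 0.0815 without 1 control library).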
